A study of Mus musculus with 30 samples.

Results

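The 10 genes described here are members of the Bcl-2 family and of the apoptosome, the core of the intrinsic pathway of apoptosis. They were chosen by name, by a rule that uses no measured value, and all 10 were found by Ensembl identifier among the 54532 genes of both count tables. They comprise the pro-survival genes Bcl2l1 (Bcl-xL), Bcl2 and Mcl1, the effectors Bak1 and Bax, the BH3-only genes Bcl2l11 (Bim), Bad and Bid, and the apoptosome genes Apaf1 and Casp9. RNA of blood platelets and of peripheral blood mononuclear cells (PBMC) was sequenced from female C57BL/6 mice 14 days after subcutaneous injection of B16F10 cells, a mouse melanoma line. The C group received 100 µl of Hanks' balanced saline (HBSS) with 0 cells, the S group a suboptimal inoculum of 2000 cells, and the O group an optimal inoculum of 100000 cells. By the labels the S group stands for an early tumor and the O group for a large tumor, and the labels name no genetic change or other agent for any group. Each of the 3 groups had 5 libraries per tissue, and each library was made from RNA pooled over several mice (3 to 5 in the O group, 5 to 10 in the other platelet groups, 4 or 5 in the other PBMC groups, by the labels, while the study's methods give slightly different sizes for some platelet pools of the S group), so that variation between single mice was averaged within a library. The study describes the libraries as coming from independent experiments, but no source used here says whether a replicate number marks one, and P values measure the spread between these pools. PBMC were prepared from what remained of the blood after the platelets were taken, and in the O group the same-numbered pools of both tissues had equal sizes (3, 4, 5, 3 and 5 mice), so they may hold the same mice, which the labels do not state.

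The balance between pro-survival and pro-death proteins of the Bcl-2 family decides whether Bak and Bax open the outer mitochondrial membrane. Cytochrome c that leaves the mitochondria then assembles with Apaf1 and caspase-9 into the apoptosome, which activates the effector caspases. Platelets have no nucleus, and their lifespan is known to be set by Bcl-xL, which holds Bak in check, whereas lymphocytes depend mainly on Bcl-2 and Mcl-1. Maturing erythroid cells also depend on Bcl-xL.

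The promoters of the most abundant pro-survival members are shown because these genes carried the highest levels per length in platelets. Both are the bases that precede the outermost RefSeq start (build GRCm38.p6, minus strand for Bcl2l1 and plus strand for Mcl1), written in the direction of transcription, with CG dinucleotides in capitals. No GENCODE exon lies in either window.
Bcl2l1, chr2:152831729-152831978: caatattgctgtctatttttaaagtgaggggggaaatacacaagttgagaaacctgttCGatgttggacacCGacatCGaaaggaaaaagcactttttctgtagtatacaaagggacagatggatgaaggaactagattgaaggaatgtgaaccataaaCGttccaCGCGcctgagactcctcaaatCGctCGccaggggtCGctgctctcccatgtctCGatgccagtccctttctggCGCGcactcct
Mcl1, chr3:95658471-95658720: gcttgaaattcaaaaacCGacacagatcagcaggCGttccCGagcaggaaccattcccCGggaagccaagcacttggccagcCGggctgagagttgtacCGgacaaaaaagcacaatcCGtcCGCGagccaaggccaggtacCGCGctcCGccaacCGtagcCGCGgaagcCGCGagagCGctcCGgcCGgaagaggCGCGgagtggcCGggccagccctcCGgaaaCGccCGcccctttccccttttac
The Bcl2l1 window held 12 CG dinucleotides at 47.6% GC and the Mcl1 window 26 at 64.4% GC. The median over 32851 windows of 250 bases before RefSeq starts was 6 at 52.4% GC. Those windows were not limited to outermost starts or to windows free of exons. Bcl2l1 has 3 RefSeq start windows, and its counts were not divided among them.

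Total counts per library ranged from 12259036 to 25360080 in platelets and from 13390983 to 15973449 in PBMC. Levels are given as CPM, counts scaled to a common library size by TMM over all 30 libraries, and comparisons between genes as CPM per kilobase of exon. Of 12 platelet and megakaryocyte markers 11 were tested, and all 11 had higher values in platelets at an unadjusted P under 0.05 by edgeR, where their summed level was 15840 to 86380 CPM against 557 to 7034 CPM in PBMC. The platelet libraries also held leukocyte RNA: 6 T cell markers summed to 134 to 327 CPM in platelets and 328 to 708 CPM in PBMC, and 6 B cell markers to 434 to 1677 CPM and 994 to 1901 CPM. The 7 erythroid markers, globin genes among them, took 4.18% to 41.2% of the counts of a platelet library and 3.35% to 27.3% of those of a PBMC library, and none was at 0. The highest shares belonged to replicate 1 of the O group in both tissues, and the same libraries had the highest neutrophil marker sums (4840 CPM in platelets, 3529 CPM in PBMC). Of 5 melanoma markers, up to 4 were at 0 in a library. In such bulk libraries, fewer cells of a type and less RNA per cell cannot be told apart.

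All 10 members passed the filter on low counts in every comparison. In platelets the highest levels per length were those of Mcl1 (median 116 CPM per kb, range 98.1 to 170 over 15 libraries) and Bcl2l1 (median 84.0 CPM per kb, range 40.5 to 303), whose ranges overlapped. Bax (21.3), Bid (18.6) and Bak1 (18.1 CPM per kb) formed a middle group of medians with overlapping ranges, followed by Bcl2 (6.83) and Bad (6.78), and Bcl2l11, Casp9 and Apaf1 were lowest at medians of 3.90, 3.66 and 3.40 CPM per kb. In PBMC, Mcl1 was again highest, at a median of 193 CPM per kb, and Bax followed at 21.3 CPM per kb. Bcl2l1 was at a median of 10.2 CPM per kb there, between Bak1 (13.0) and Bcl2 (9.52), although its highest PBMC library reached 333 CPM per kb.

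**Figure D1:**
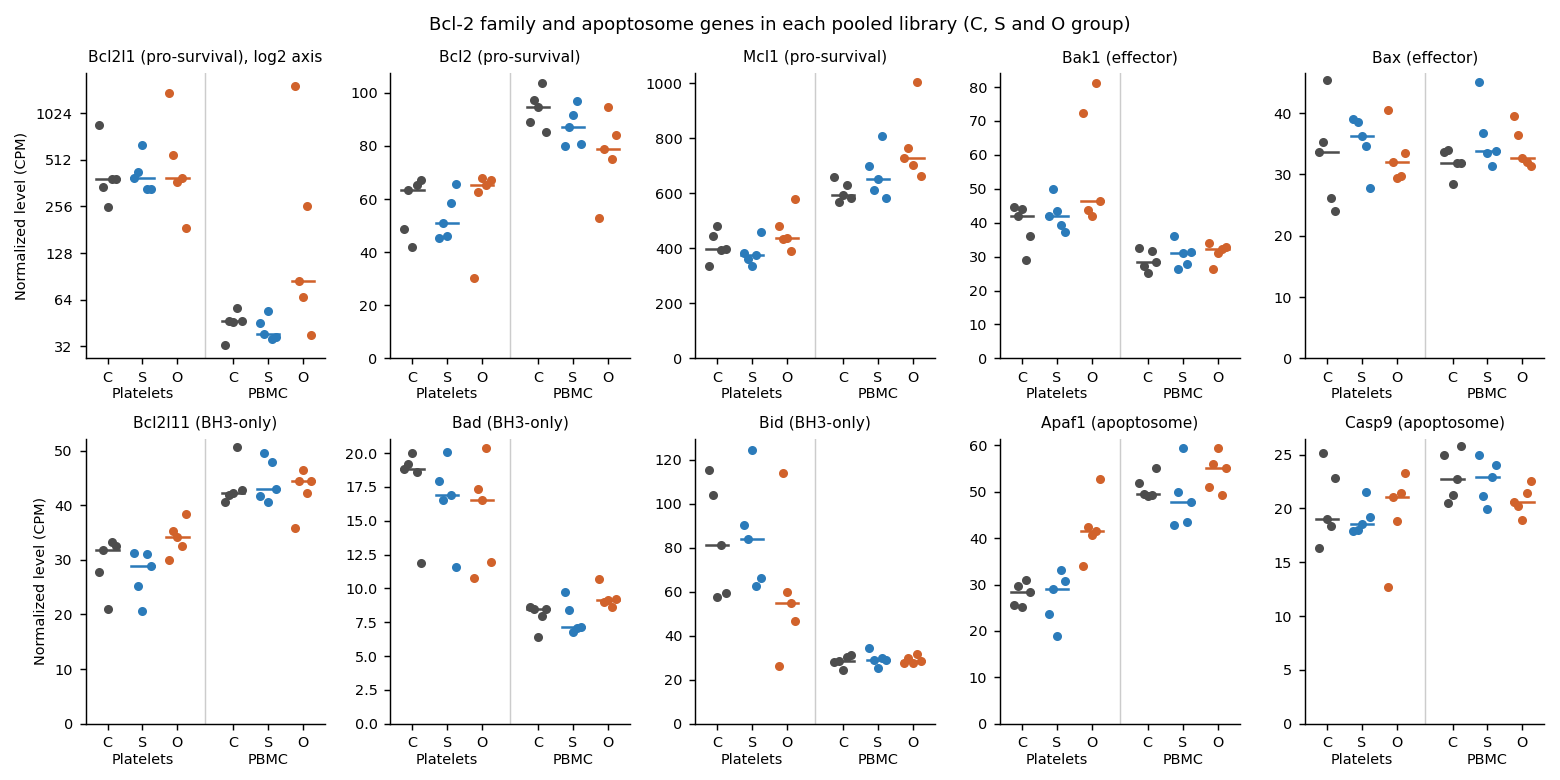
Normalized level (CPM) of each member in each of the 30 pooled libraries, with platelets to the left and PBMC to the right of the grey line in every panel, points for libraries and bars for the median of the 5 libraries of C, S and O group. Only the Bcl2l1 axis is logarithmic (base 2). The PBMC libraries of the O group spread from 37.8 to 1527 CPM for Bcl2l1, and the platelet libraries of the O group lie above those of the C and S groups for Apaf1.

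Platelets and PBMC were compared over 15 libraries each, with group as a covariate, to ask how the balance of the family differs between cells that lack a nucleus and those that have one. By TMM-scaled level, platelets carried more Bcl2l1, Bid, Bad and Bak1 RNA and less Mcl1, Apaf1, Bcl2, Bcl2l11 and Casp9 RNA. Thus 9 of 10 members passed an adjusted P of 0.05 (edgeR quasi-likelihood test, Benjamini-Hochberg). The TMM factors were 0.386 to 1.008 in platelets and 0.931 to 1.772 in PBMC, so the directions of smaller differences can depend on this scaling. In replicate 2 of the C group, for example, Bak1 took 599 of 23441646 counts in platelets and 691 of 15272318 in PBMC. The background was high, since 81% of the 16498 genes tested passed, 35.8% as higher and 45.2% as lower in platelets. With 4 members higher and 5 lower, the list did not stand far from that background. The median log2 fold change over the members was -0.09, and that over all genes was -0.17.

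Among the pro-survival genes, Bcl2l1 (chromosome 2, 152780668 to 152831728, GRCm38) had a lowest, median and highest level of 186, 385 and 1389 CPM in platelets and of 32.5, 46.7 and 1527 CPM in PBMC. The tissues overlapped only through 2 PBMC libraries of the O group, replicates 1 and 4. Platelets exceeded PBMC by a log2 fold change of 2.44 (SE 0.478, adjusted P = 2.87e-05 by edgeR). Without those 2 libraries it was 3.27, and with the erythroid score, the mean log2 level of the erythroid markers, as a covariate it was 1.31 (adjusted P = 0.00031 by edgeR). Within the C group alone it was 3.29 and within the S group alone 3.52, but within the O group alone it was 0.55 and not past the threshold (adjusted P = 0.643 by edgeR). With the O group pools of both tissues paired by number it was 1.60 (adjusted P = 0.015 by edgeR). Mcl1, which protects many leukocytes, had a median of 398 CPM in platelets and 659 CPM in PBMC, with a log2 fold change of -0.70 (SE 0.0835, adjusted P = 5.93e-09 by edgeR). Bcl2, the founding member, had medians of 62.5 and 87.2 CPM and a log2 fold change of -0.61 (SE 0.102). For Bcl2 and Mcl1 the ranges of the tissues overlapped, and within the O group alone Bcl2 did not pass without pairing (log2 fold change -0.40, adjusted P = 0.156 by edgeR) and passed with the pools paired (-0.43, adjusted P = 0.0176 by edgeR).

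The effectors differed from each other. Bak1 (chromosome 17, 27019810 to 27029009), the effector that Bcl-xL restrains in platelets, ranged from 29.1 to 81.3 CPM in platelets (median 43.6) and from 25.1 to 36.0 CPM in PBMC (median 31.2), with a log2 fold change of 0.59 (SE 0.0951, adjusted P = 1.52e-06 by edgeR). Bax, which acts beside Bak in most cells, had medians of 33.6 CPM in platelets and 33.5 CPM in PBMC, and a log2 fold change of -0.02 (SE 0.0789) that did not pass (adjusted P = 0.843 by edgeR). Bak1 passed within the C, S and O groups taken alone, at log2 fold changes of 0.45, 0.66 and 0.87. Exons of Ggnbp1 on the opposite strand cover 18.2% of Bak1 exon length, and without stated strand counting reads there cannot be assigned with certainty.

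The BH3-only genes, which activate the effectors or block the pro-survival proteins, went in both directions. Bid, which is cleaved by caspase-8 and so links death receptors to mitochondria, ranged from 26.0 to 125 CPM in platelets (median 66.1) and from 24.4 to 34.6 CPM in PBMC (median 28.7). Its log2 fold change was 1.38 (SE 0.146, adjusted P = 5.12e-10 by edgeR). Only the platelet library of O group replicate 1, at 26.0 CPM, lay within the PBMC range. Bad ranged from 10.8 to 20.4 CPM in platelets and from 6.41 to 10.7 CPM in PBMC, with a log2 fold change of 0.99 (SE 0.101). Its ranges were separate by a narrow margin, and the share of all genes with separate tissues was not computed. Bcl2l11, a strong activator that all pro-survival proteins bind, had a log2 fold change of -0.53 (SE 0.0752). Opposite-strand exons cover 20.5% of Bad (Gpr137) and 17.7% of Bid (Bcl2l13).

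Both apoptosome genes were lower in platelets. Apaf1, the scaffold (chromosome 10, 90989311 to 91082770), had medians of 30.7 CPM in platelets and 50.0 CPM in PBMC and a log2 fold change of -0.69 (SE 0.0843, adjusted P = 1.01e-08 by edgeR). Casp9, the initiator caspase, differed by a log2 fold change of -0.17 (SE 0.0743, adjusted P = 0.0367 by edgeR), which passed in 18 of 30 fits that left out 1 library and was lost within each group alone. Leaving out any 1 of the 30 libraries kept the other 8 members past the threshold. T cell and monocyte markers were lower in platelets too (5 of 6 each at an unadjusted P under 0.05), and their part in the lower values of Mcl1, Bcl2, Bcl2l11 and Apaf1 was not tested.

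**Figure D2:**
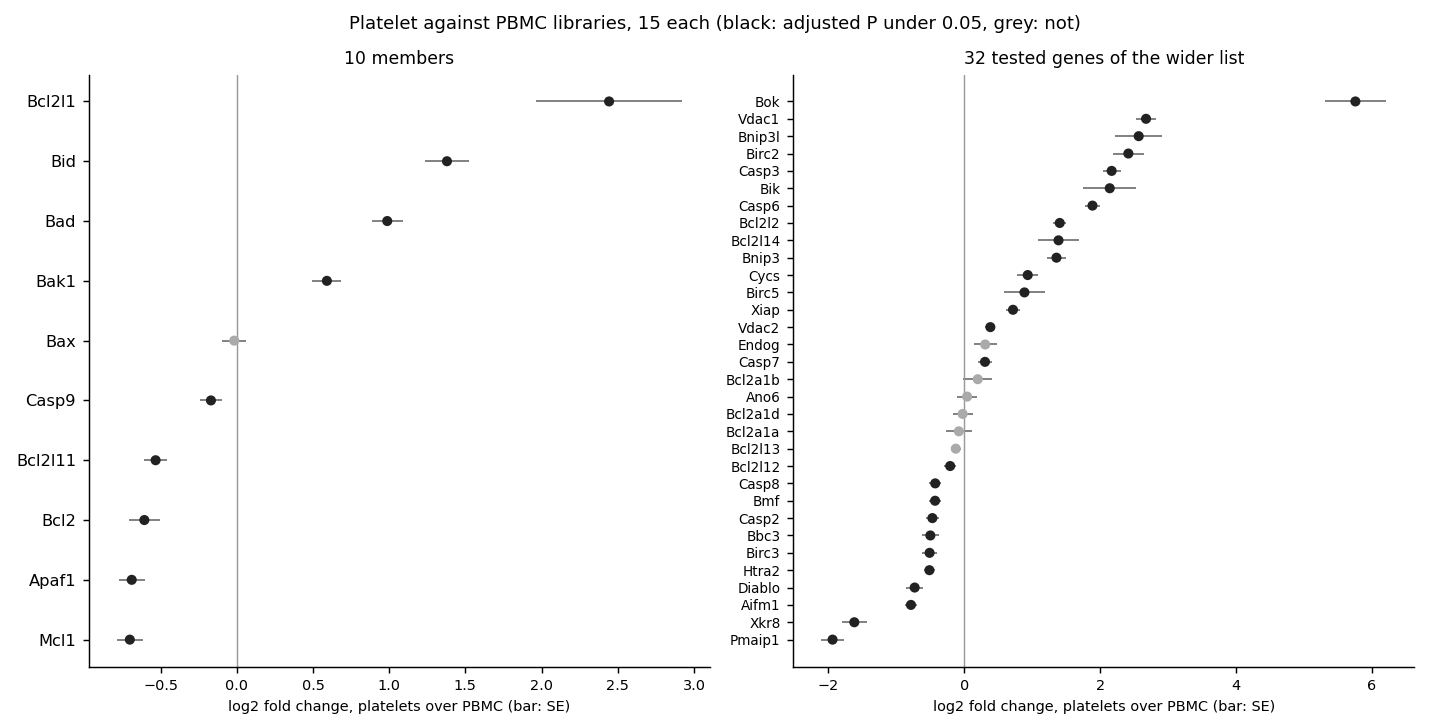
Log2 fold change of platelets over PBMC (15 libraries each, points with standard error bars), for the 10 members on the left and the 32 tested genes of a wider apoptosis list on the right, with black points for an adjusted P under 0.05 and grey points for the others. Bcl2l1 at 2.44 lies farthest to the right among the members, and Bok at 5.76, which rests on few counts in PBMC, among the wider list.

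Of a wider list of 35 apoptosis genes, 32 could be tested between the tissues and 26 passed, 15 higher and 11 lower in platelets, beside 81% of all genes. Bok, a Bax-like effector, was at 2.56 ± 1.17 CPM in platelets and 0.0455 ± 0.0532 CPM in PBMC, a log2 fold change of 5.76 (SE 0.453). Its range was 0 to 3.96 CPM in platelets and 0 to 0.153 CPM in PBMC, so this fold change rests on few counts. Vdac1, a channel of the outer mitochondrial membrane, was at 285 ± 99.3 CPM against 44.7 ± 5.3 CPM (log2 fold change 2.67, SE 0.144). Bnip3l, which drives removal of mitochondria in maturing red cells, was at 1716 ± 1085 CPM against 377 ± 509 CPM (2.57, SE 0.350). In PBMC the median of Bnip3l was 188 CPM and its range 106 to 2098 CPM. The lowest were Pmaip1 (Noxa, a BH3-only gene) at a log2 fold change of -1.94 (SE 0.165), the scramblase Xkr8 at -1.62 (SE 0.180) and Aifm1, a mitochondrial flavoprotein, at -0.79 (SE 0.0866). Levels are means with SD over 15 libraries. The erythroid markers were higher in platelets too (7 of 7 at an unadjusted P under 0.05), and their part in the Bnip3l difference was not tested.

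Between groups, counts at an unadjusted P under 0.05 are given beside the adjusted result. No member passed an adjusted P of 0.05 by edgeR in any of the 6 group comparisons. Comparisons within a tissue share libraries: both S group comparisons use the S group, and both C group comparisons the same controls.

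In PBMC, O group against C group asks what a large tumor does to circulating mononuclear cells. By edgeR, 4 of 10 members had an unadjusted P under 0.05, all with higher values in the O group, and 0 passed after adjustment. Over all 14726 genes 11.9% had such a P and 0% passed after adjustment. The median log2 fold change of the members was 0.15 and that of all genes 0.00147.

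Bcl2l1 was at 1527, 84.1, 67.1, 258 and 37.8 CPM in replicates 1 to 5 of the O group. It was at 32.5, 46.7, 46.2, 56.7 and 46.8 CPM in the C group and at 45.3, 38.6, 53.9, 35.6 and 36.9 CPM in the S group. Replicates 1 to 4 of the O group lay above every other PBMC library, replicate 5 within the range of the others, and the C and S groups overlapped. Between O and C group the log2 fold change was 3.23 (SE 0.970, adjusted P = 0.337 by edgeR), and by DESeq2 Bcl2l1 was the 1 member past the adjusted threshold (adjusted P = 0.0355), beside 1.93% of the 12666 genes to which DESeq2 gave an adjusted P. Without replicate 1 the log2 fold change was 1.35 (adjusted P = 0.433 by edgeR), and without replicates 1 and 4 it was 0.47 (adjusted P = 0.57 by edgeR). With the replicate number as a block it was 1.57 (adjusted P = 0.465 by edgeR), and its unadjusted P was not under 0.05.

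The erythroid markers moved with Bcl2l1 in PBMC. They took 27.3%, 18.9%, 15.6%, 20.3% and 6.76% of the counts in replicates 1 to 5 of the O group, 3.38% to 9.78% in the C group and 3.35% to 8.96% in the S group. The 4 libraries with the highest shares were the 4 with the highest Bcl2l1 levels, in the same order. All 7 markers had an unadjusted P under 0.05 in O against C (median log2 fold change 2.82), and none was at 0 in any library. With the erythroid score as a covariate the log2 fold change of Bcl2l1 in O against C was -1.44 (adjusted P = 0.999 by edgeR), and the count of members with an unadjusted P under 0.05 was 0. Neutrophil markers were higher in replicates 1 and 4 as well, at 3529 and 3052 CPM against 293 to 550 CPM in the other O group libraries, and with the neutrophil score as a covariate Bcl2l1 was at 0.71. Platelet and megakaryocyte markers summed to 7034 and 4351 CPM in replicates 1 and 4 against 1036 to 1749 CPM in the other O group libraries and 557 to 3305 CPM in the C group, and all 11 tested had positive log2 fold changes in O against C (median 0.65, 0 at an unadjusted P under 0.05). T cell markers were lower in O against C (6 of 6 at an unadjusted P under 0.05), as were 2 of 5 NK cell markers. The erythroid score itself differed between the groups (10.49 to 14.07 in the O group, 9.33 to 11.07 in the C group), so that fit cannot fully tell its part from that of the group. How far these cell types account for the member values was not tested beyond these fits.

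**Figure D3:**
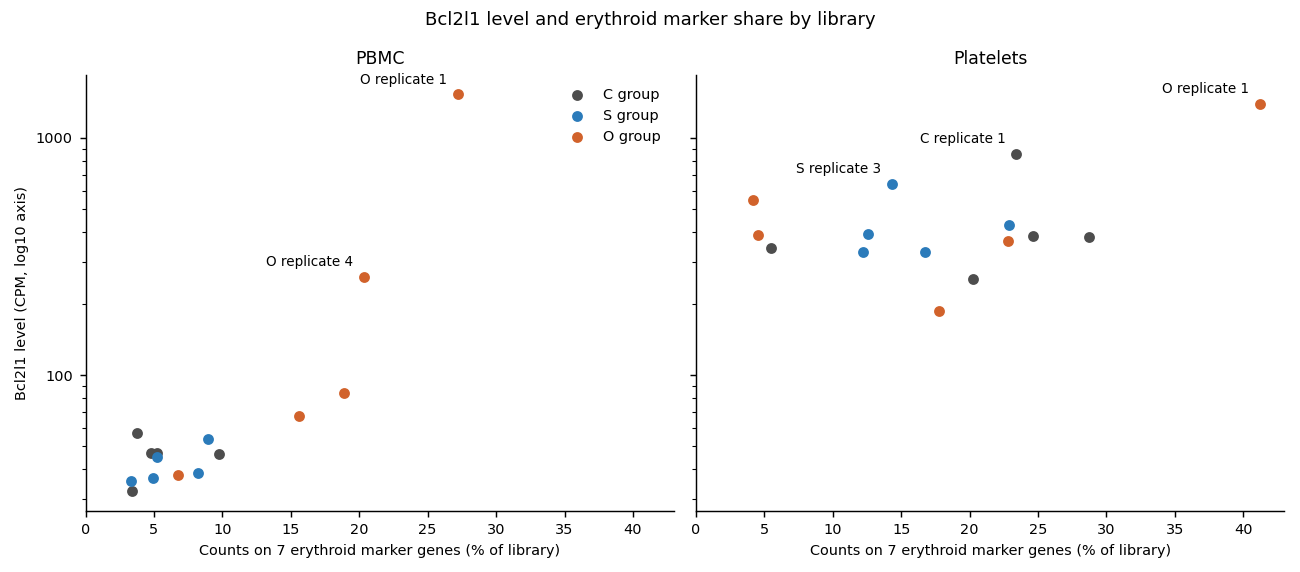
Level of Bcl2l1 (CPM, log10 axis) against the share of counts on 7 erythroid markers (percent) in 15 PBMC libraries (left) and 15 platelet libraries (right), coloured by group. In PBMC the 4 libraries above 60 CPM are O group libraries at 15.6% to 27.3%, while platelet libraries lie between 186 and 1389 CPM at any share.

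Mcl1 (chromosome 3, 95658788 to 95663176) was at 729, 765, 704, 1003 and 662 CPM in the O group and at 659, 570, 593, 631 and 582 CPM in the C group of PBMC. Every O group library lay above every C group library, a separation that 2.13% of all genes showed. This was a log2 fold change of 0.41 (SE 0.127, adjusted P = 0.339 by edgeR). It was 0.31 with the neutrophil score, 0.24 without replicates 1 and 4 and 0.20 with the erythroid score as a covariate, and in the last of these fits its unadjusted P was no longer under 0.05.

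Bad was at 10.7, 8.99, 9.17, 8.59 and 9.23 CPM in the O group and at 8.60, 8.51, 6.41, 7.93 and 8.51 CPM in the C group, and the groups overlapped at their edges. Bad had a log2 fold change of 0.28 (SE 0.109, adjusted P = 0.379 by edgeR). Apaf1 had the smallest difference of the 4, a log2 fold change of 0.14 (SE 0.0577, adjusted P = 0.381 by edgeR), and its groups overlapped. Without replicates 1 and 4, Mcl1 and Apaf1 kept an unadjusted P under 0.05 while Bcl2l1 and Bad did not. The other 6 members had log2 fold changes between -0.24 (Bcl2) and 0.17 (Bax and Bak1).

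In PBMC of the S group against the O group, 2 of 10 members had an unadjusted P under 0.05 by edgeR, both lower in the S group, and 0 passed after adjustment. Among all 14686 genes 12.2% had such a P, 0% passed after adjustment and 2.23% had groups that did not overlap. Bcl2l1 had a log2 fold change of -3.36 (SE 0.967, adjusted P = 0.298 by edgeR and 0.0261 by DESeq2, where 1.87% of 12630 genes passed), which was -1.47 without replicate 1 of the O group and -0.60 without replicates 1 and 4 (adjusted P = 0.576 by edgeR). It was -1.79 with the replicate block and -0.83 with the neutrophil score, in both without an unadjusted P under 0.05. Bad had a log2 fold change of -0.32 (SE 0.122, adjusted P = 0.346 by edgeR), with 6.76 to 9.75 CPM in the S group, and was -0.28 with the neutrophil score, where its unadjusted P was just above 0.05. Neither gene's groups were separate. All 7 erythroid markers and 2 of 8 neutrophil markers were lower in the S group at an unadjusted P under 0.05, and all 6 T cell and 5 NK cell markers were higher. All 11 tested platelet and megakaryocyte markers had negative log2 fold changes (median -0.89), 1 of them at such a P. The part of these cells in the Bcl2l1 and Bad values was not tested beyond the covariate fits given here. With the erythroid score as a covariate, 0 members had such a P and Bcl2l1 was at 0.91.

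In PBMC of the S group against the C group, where no tumor was visible, 0 of 10 members had an unadjusted or adjusted P under 0.05 by edgeR, and DESeq2 gave 0 as well. The shares over 15139 genes were 2.64% before and 0.033% after adjustment (0.199% by DESeq2), and 0.76% for groups that did not overlap. The log2 fold changes of the members lay between -0.12 (Bcl2l1) and 0.18 (Bax). Same-numbered libraries of these groups deviated together, and in the fit with the replicate number as a block 1 member, Bax, had an unadjusted P under 0.05 (log2 fold change 0.17, adjusted P = 0.999 by edgeR). Bax was at 45.1, 36.8, 33.5, 31.3 and 33.9 CPM in the S group and at 33.6, 34.0, 28.5, 31.9 and 31.8 CPM in the C group. The groups overlapped, and replicate 4 alone was lower in the S group than its counterpart.

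In platelets of the O group against the C group, 1 of 10 members, Apaf1, had an unadjusted P under 0.05 by edgeR, and 0 passed after adjustment. Over 13270 genes 4.79% had such a P and 0% passed after adjustment (0.0383% by DESeq2). Apaf1 was at 33.9, 42.4, 40.6, 41.5 and 52.7 CPM in replicates 1 to 5 of the O group. It was at 25.6, 29.7, 25.2, 31.1 and 28.3 CPM in the C group and at 23.6, 29.1, 18.9, 33.1 and 30.7 CPM in the S group. The O group lay above all libraries of both other groups, which 0.995% of genes showed against the C group, and the C and S groups overlapped. The log2 fold change of O over C was 0.54 (SE 0.140, adjusted P = 0.91 by edgeR and 0.0805 by DESeq2), which ranked 17th by P among the genes tested.

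Neutrophil markers moved with the platelet O group, at 518 to 4840 CPM (median 694) against 223 to 1044 CPM (median 296) in the C group, with 4 of 7 tested at an unadjusted P under 0.05. With the neutrophil score as a covariate the log2 fold change of Apaf1 was 0.62 (adjusted P = 0.842), with the erythroid score 0.54 (adjusted P = 0.669), and without replicate 1 of the O group 0.60 (adjusted P = 0.954), all by edgeR and all with an unadjusted P under 0.05. T cell and B cell markers were lower in the O group (2 of 6 and 3 of 6 at an unadjusted P under 0.05). The part of these cell types in the Apaf1 values was not tested beyond these fits.

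The genes known for platelet lifespan did not separate the platelet groups. Bcl2l1 was at 1389, 546, 368, 388 and 186 CPM in the O group, at 855, 343, 254, 385 and 383 CPM in the C group and at 392.1, 429, 638, 329 and 330 CPM in the S group. The groups overlapped throughout, and the O group held both the highest and the lowest library. For O over C the log2 fold change of Bcl2l1 was 0.37 (SE 0.517, adjusted P = 0.938 by edgeR), and without replicate 1 of the O group it was -0.33. Bak1 was at 72.3, 43.8, 42.0, 81.3 and 46.3 CPM in the O group, at 44.6, 42.1, 44.0, 29.1 and 36.0 CPM in the C group and at 42.0, 49.8, 43.6, 39.4 and 37.3 CPM in the S group. Replicates 1 and 4 of the O group stood above the rest. The log2 fold change of O over C was 0.50 (SE 0.231, adjusted P = 0.91 by edgeR). Its unadjusted P was just above 0.05 by edgeR and just under by DESeq2 (adjusted P = 0.824), and without replicate 1 the log2 fold change was 0.37. By median the order for Bak1 was platelets of the O, C and S groups (46.3, 42.1 and 42.0 CPM), then PBMC of the O, S and C groups (32.2, 31.2 and 28.5 CPM). For Bcl2l1 it was platelets of the S, O and C groups (392.1, 388 and 383 CPM), then PBMC of the O, C and S groups (84.1, 46.7 and 38.6 CPM). Neighbours within a tissue overlapped in both orders.

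In platelets of the S group against the O group, 1 of 10 members had an unadjusted P under 0.05 by edgeR and 0 passed after adjustment, beside 13.9% and 0% of 13306 genes (2.12% after adjustment by DESeq2), and 4.04% of genes had groups that did not overlap. That member was Apaf1 again, lower in the S group at a log2 fold change of -0.57 (SE 0.187, adjusted P = 0.279 by edgeR). Bid had a log2 fold change of 0.60 (SE 0.310, adjusted P = 0.408 by edgeR), with 62.7 to 125 CPM in the S group and 26.0 to 114 CPM in the O group. Its groups overlapped, and its unadjusted P was above 0.05, but without replicate 2 of the O group it was 0.91 (adjusted P = 0.226 by edgeR), with the replicate block 0.68 and with the erythroid score 0.67, each with an unadjusted P under 0.05. Markers of other cells differed widely in this comparison: at an unadjusted P under 0.05, 6 of 7 neutrophil markers were lower in the S group (median log2 fold change -2.28), and 5 of 6 B cell (1.13), 5 of 6 T cell (0.90) and 3 of 6 monocyte markers (0.65) were higher. With the neutrophil score as a covariate the log2 fold change of Apaf1 was -0.62 (adjusted P = 0.254 by edgeR), and with a score of all leukocyte markers -0.54 (adjusted P = 0.262 by edgeR), both with an unadjusted P under 0.05.

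In platelets of the S group against the C group, 0 of 10 members had an unadjusted or adjusted P under 0.05 by edgeR, and DESeq2 gave 0 as well. The shares over 13268 genes were 6.42% before and 0.00754% after adjustment (0.0679% by DESeq2), and 1.11% for groups that did not overlap. The log2 fold changes lay between -0.07 (Bad) and 0.14 (Bak1), with standard errors from 0.151 to 0.298. For Bcl2l1 the value was -0.03 (SE 0.298).

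**Figure D4:**
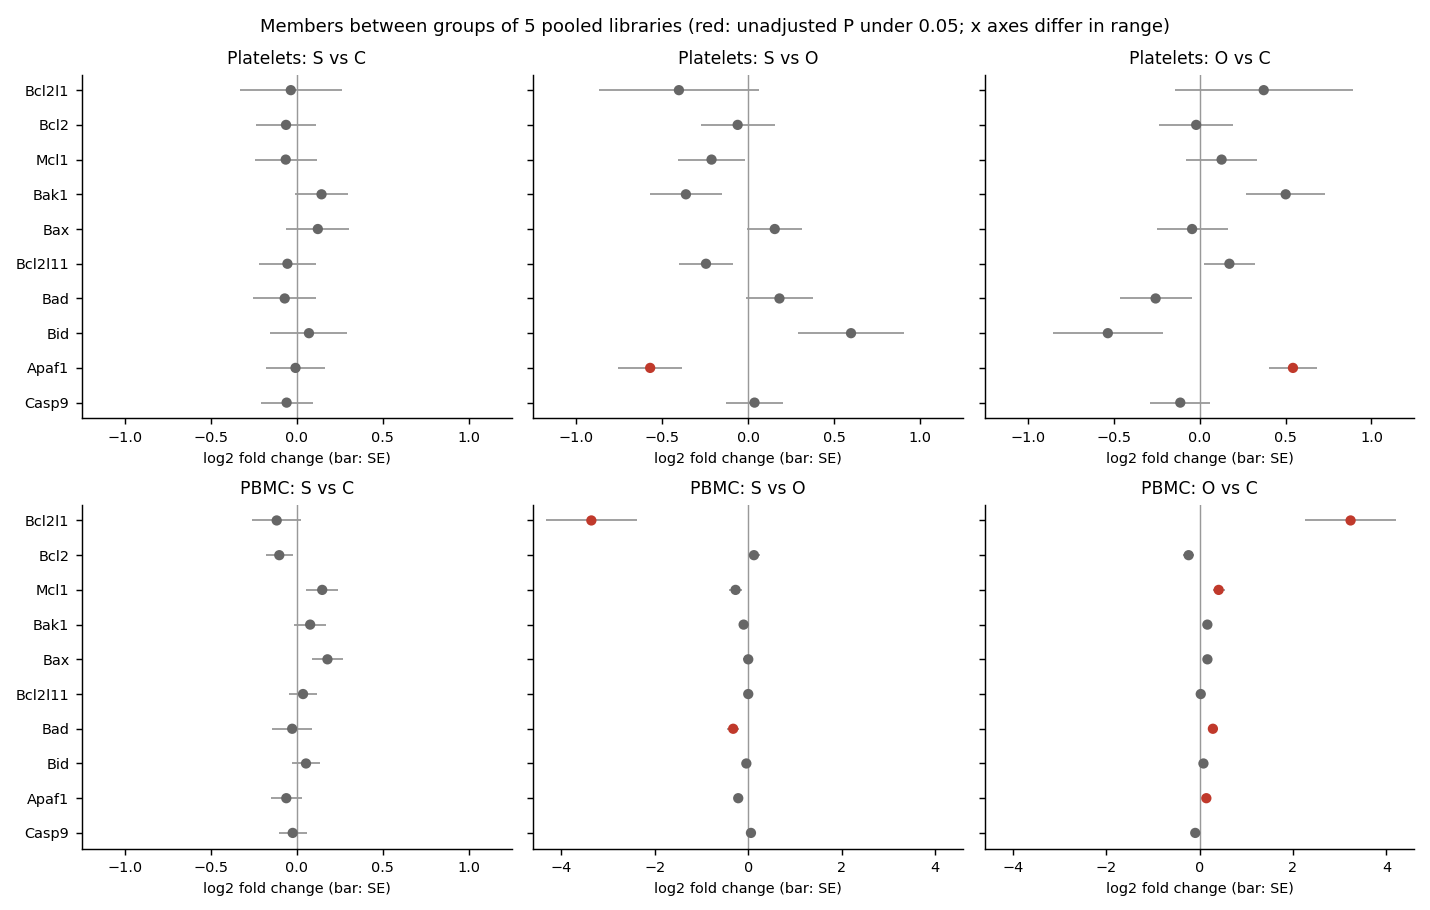
Log2 fold change (points) with standard error (bars) of the 10 members in the 6 comparisons of groups of 5 pooled libraries, with red points for an unadjusted P under 0.05. The upper row shows platelets and the lower row PBMC, and the axes of the 2 PBMC comparisons with the O group are wider, since Bcl2l1 reaches -3.36 and 3.23 there.

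A ratio of counts within a library does not depend on scaling between libraries. The log2 ratio of Bcl2l1 to Bak1 was 3.39 ± 0.660 in the C group, 3.28 ± 0.335 in the S group and 3.06 ± 0.942 in the O group of platelets (mean ± SD, n = 5 libraries each). In PBMC it was 0.64 ± 0.364, 0.45 ± 0.220 and 2.30 ± 2.05 in the same order. Single platelet libraries held 4.01 to 19.2 Bcl2l1 counts per Bak1 count, and PBMC libraries 1.00 to 1.84 in the C and S groups and 1.15 to 45.0 in the O group. The O group of PBMC was the most dispersed, and its replicate 5 lay with the C and S groups.

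Exact two-sided permutation tests over all arrangements of 5 against 5 libraries, which can reach an exact P of 0.00794, were run for 12 comparisons of this ratio and of Bcl2 to Bax. The smallest P was that of Bcl2l1 to Bak1 in PBMC of the S against the O group (log2 difference -1.85, exact P = 0.0556, adjusted P = 0.262), followed by Bcl2 to Bax in PBMC of O against C (-0.41, exact P = 0.0635, adjusted P = 0.262). The Bcl2 to Bax ratio of PBMC was 1.56 ± 0.154 in the C group, 1.28 ± 0.301 in the S group and 1.14 ± 0.439 in the O group on the log2 scale. In platelets it was 0.81 ± 0.643, 0.59 ± 0.415 and 0.78 ± 0.676. No ratio passed the threshold before or after adjustment in these unpaired tests, and the groups overlapped in all 12 comparisons. Same-numbered PBMC libraries of S and C group deviated together, but no source used here states that the numbers pair them. Taken as pairs, the Bcl2 to Bax ratio was lower in the S group in 5 of 5, with log2 differences of -0.58 to -0.0699. Its P was the smallest that an exact sign-flip permutation test of 5 pairs can give (exact P = 0.063). In O against C, where pairing is not settled either, the ratio was also lower in the O group in 5 of 5 same-numbered pairs. There the log2 differences were -0.99 to -0.000378, with the same exact P by that permutation test.

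**Figure D5:**
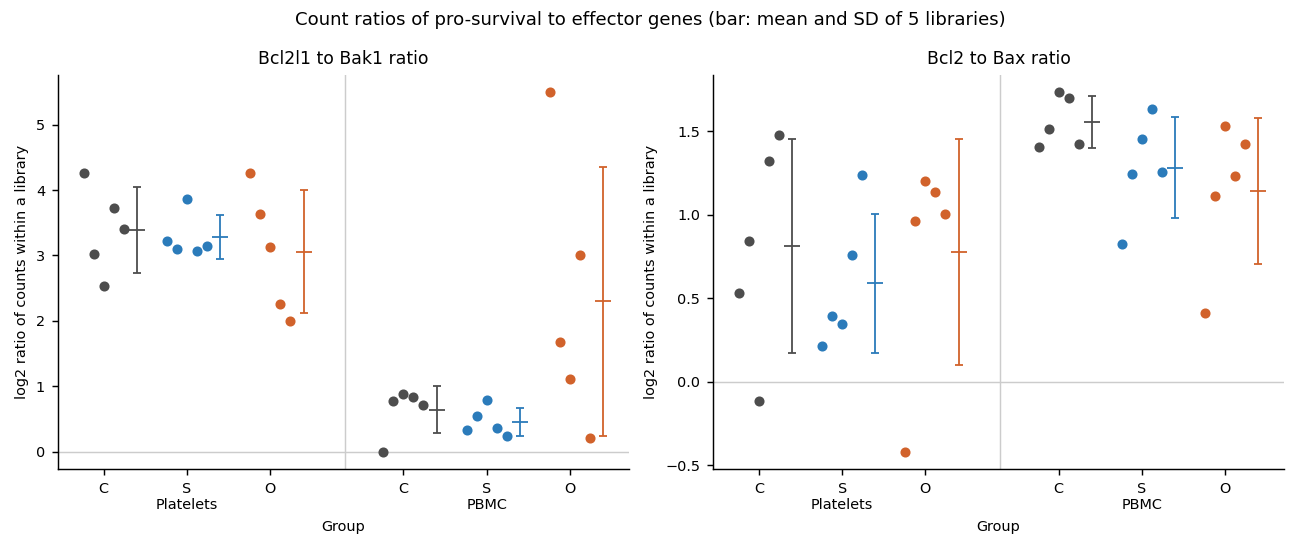
Log2 ratio of counts within each library for Bcl2l1 to Bak1 (left) and Bcl2 to Bax (right), with points for the 5 libraries of each group and bars for mean and SD. Platelet libraries lie between 2.00 and 4.26 for Bcl2l1 to Bak1, and the PBMC libraries of the O group spread from 0.20 to 5.49.

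The difference of a group effect between platelets and PBMC was tested as an interaction. No member passed after adjustment in any of the 3 contrasts, and neither did any of 16498 genes (0%). At an unadjusted P under 0.05 by edgeR there were 0 members for S against C, 3 for S against O and 2 for O against C, beside 5.38%, 13.6% and 6.59% of all genes. For O against C these were Bcl2l1 (platelet minus PBMC log2 difference -2.73, SE 0.903, adjusted P = 0.538) and Apaf1 (0.51, SE 0.182, adjusted P = 0.573). For S against O they were Bcl2l1 at 2.79, Apaf1 at -0.49 and Bcl2l11 at -0.38.

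The wider list was also read between groups, where no gene passed after adjustment by edgeR. In platelets of S against C, 3 of 32 tested genes had an unadjusted P under 0.05, beside 6.42% of all genes, and all were higher in the S group: Bbc3 (Puma, a BH3-only gene, log2 fold change 0.54), Bik (BH3-only, 1.23) and Xkr8 (1.30, SE 0.348). Xkr8, a scramblase that caspases switch on, was at 1.11 to 2.75 CPM in the S group, above the 0.64 to 0.98 CPM of the C group and the 0.55 to 0.83 CPM of the O group, where 1.11% of all genes had S and C groups that did not overlap and 4.04% such S and O groups. At these levels it rests on few counts, and it is higher in PBMC than in platelets, while T cell and B cell markers were higher in the S group than in the C group (3 of 6 each at an unadjusted P under 0.05). Their part in the Xkr8 values was not tested.

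In platelets of S against O, 5 of 32 had such a P, near the 13.9% of all genes: Xkr8 (log2 fold change 1.67) and Bbc3 (0.45) higher in the S group, and Cycs, the gene of cytochrome c (-0.85), the channel gene Vdac2 (-0.35) and Bcl2a1a (-0.72) lower. Bcl2a1a has near-identical copies, and its counts are uncertain. The part of the neutrophil and lymphocyte marker differences given above in these values was not tested. In platelets of O against C it was 0 of 30 genes, and in PBMC of S against C 0 of 30. In PBMC of O against C it was 2 of 29, beside 11.9% of all genes, Bnip3l (2.34, SE 0.612) and Cycs (0.49, SE 0.173), both higher in the O group. Bnip3l ranged there from 188 to 2098 CPM in the O group and from 106 to 246 CPM in the C group. In PBMC of S against O it was 3 of 29, beside 12.2%, Bnip3l (-2.12) and Cycs (-0.44) lower and Bcl2l12 (0.34) higher in the S group. The erythroid shares given above apply to Bnip3l as to Bcl2l1.

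Over the 30 libraries the genes most like Bcl2l1, by the mean absolute difference of centred log2 CPM, were Smox (0.246), Gm6055 (0.256) and Chac2 (0.263), where the median over 16497 genes was 1.66. For Bak1 they were Sgta (0.122), Eno1 (0.123) and Atp5d (0.127), with a median of 0.512. Libraries share tissue, depth and pools, so these values describe the data set.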

How the data were processed

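Platelet and PBMC RNA of 3 groups was sequenced as 5 pooled libraries per group and tissue. Tissue was taken from titles and source names, because platelet samples are tagged as PBMC in the labels. As the authors describe, poly-A libraries were sequenced, reads were aligned with HISAT2 (2.0.5 in the submitters' processing notes) and featureCounts (1.5.0-p3) made the deposited counts, which are raw and not normalized. The notes list mm9, but 643 of 664 genes with a position in the supplement have that position in GENCODE M21, so positions are those of GRCm38. Whether counting used strand is not given in the sources used here.

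The rule for the members uses gene names alone, but members and lists were chosen with earlier results of these data known. Group comparisons were fitted pair by pair in edgeR 4.0.16 (R 4.3.3; filterByExpr, TMM, quasi-likelihood F test, two-sided), and adjusted P values are Benjamini-Hochberg over all genes tested. A standard error is the log2 fold change divided by the square root of F. Tissues were compared over 30 libraries with group as a covariate. Ratios used counts plus 0.5. Fits were tested on simulated data. Named genes are the 10 members, the genes of the 35-gene list with an unadjusted P under 0.05 or, between tissues, the 3 largest and 3 smallest log2 fold changes past the adjusted threshold, and the 3 genes most like Bcl2l1 and Bak1. Bax under the replicate block was named after its value was seen.

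Alternatives were DESeq2 1.42.0, RLE size factors, no filter, a replicate block, all 3 groups in one fit, marker scores (mean log2 of CPM plus 1) as covariates and leaving out libraries. No 2 libraries were identical. The correlation of deviations of same-numbered libraries was over 0.1 in all 5 pairs of PBMC S and C group (0.274 to 0.565), so that block is given beside the result. Same-numbered O group pools of both tissues, which may share mice, are also given paired.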

Additional observations from a re-analysis of the deposited data

Results flagged for a closer look

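In 72 sets of 5 libraries (60 for member levels, 12 for ratios), 8 values from 7 libraries lay far from the other 4 of their group, by a gap above 0.71 of the range. Chance gives about 1 such set in 20, or 3.6 here. Of these, 3 belong to replicate 1 of the O group, the libraries with the highest erythroid share. In PBMC its Bcl2l1 level was 1527 CPM beside 37.8 to 258 CPM in the others. In platelets its Bcl2 level was 30.3 CPM beside 62.5 to 67.9 CPM, and its log2 ratio of Bcl2 to Bax, which holds the same Bcl2 counts, was -0.42 beside 0.96 to 1.20. In the C group of platelets, Bcl2l1 was at 855 CPM in replicate 1 beside 254 to 385 CPM, and Bad at 11.9 CPM in replicate 5 beside 18.57 to 20.02 CPM. In the C group of PBMC, Bcl2l11 was at 50.7 CPM in replicate 4 beside 40.6 to 42.7 CPM, and the log2 ratio of Bcl2l1 to Bak1 was 0 in replicate 1 beside 0.71 to 0.88. In the S group of platelets that ratio was 3.87 in replicate 3 beside 3.06 to 3.22.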

How the results depend on the processing

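All 6 group comparisons gave 0 members past the adjusted threshold under every alternative, except that DESeq2 passed Bcl2l1 in PBMC of S against O and of O against C. The 3 interactions kept 0 members. At the unadjusted threshold, platelets of S against C kept 0 members, and for the others the count moved as follows. In platelets of S against O (1 member) it was 2 with the replicate block and 2 with the erythroid score, both adding Bid, and 1 to 3 without single libraries. In platelets of O against C (1) it was 2 by DESeq2, 2 with RLE size factors, 2 on all genes with at least 1 count and 2 with all 3 groups in one fit, each adding Bak1, 3 with the erythroid score (Bak1 and Bid added), and 1 to 3 without single libraries. In PBMC of S against C (0) it was 1 with the replicate block and 0 to 1 without single libraries. In PBMC of S against O (2) it was 3 with the replicate block (Mcl1, Apaf1 and Bad), 3 with RLE size factors (Apaf1 added), 4 with all 3 groups in one fit, 0 with the erythroid score, 1 with the neutrophil score, 1 without the 2 erythroid-rich libraries and 1 to 3 without single libraries. In PBMC of O against C (4) it was 5 with the replicate block (Mcl1, Apaf1, Bax, Bak1 and Bad), 3 on all genes with at least 1 count (Apaf1 lost), 4 with all 3 groups in one fit (Bcl2, lower, in place of Apaf1), 0 with the erythroid score, 2 with the neutrophil score, 2 without the 2 erythroid-rich libraries and 2 to 5 without single libraries. Between tissues the count past the adjusted threshold (9) was 8 to 9 without single libraries, 8 on all genes with at least 1 count, within the C group, within the S group and with the erythroid score, 6 within the O group alone and 8 there with the pool as a block. The neutrophil and erythroid scores in platelets and the neutrophil score in PBMC were chosen after seeing the data. So were the erythroid score and the paired O group fit between tissues and the joint removal of 2 libraries. Where a cause is not named here, the cause was not tested.

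Bcl2l1 changed sign as log2 fold change in platelets of S against C with the replicate block (0.0476) and the erythroid score (0.13), and ranged from -0.23 to 0.34 without single libraries, the latter without replicate 1 of the C group. In platelets of S against O it was 0.54 with the neutrophil score and -0.64 to 0.27 without single libraries, and in O against C -0.49 and -0.33 to 0.79. With the erythroid score it was 0.91 in PBMC of S against O and -1.44 in O against C. Bak1 in PBMC of S against O was 0.00497 without the 2 erythroid-rich libraries. Between tissues Bax was 0.0245 by DESeq2, 0.0254 with RLE size factors, 0.0316 on all genes with at least 1 count, 0.067 within the C group and 0.15 within the S group, and -0.07 to 0.14 without single libraries, and Casp9 was 0.0128 with the erythroid score.

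Without single libraries the log2 difference of Bcl2l1 to Bak1 ranged from -0.32 to 0.11 (platelets, S against C), -0.0405 to 0.52 (S against O), -0.63 to -0.0675 (O against C), -0.35 to -0.13 (PBMC, S against C), -2.37 to -1.05 (S against O) and 0.86 to 2.18 (O against C). That of Bcl2 to Bax ranged from -0.46 to -0.0565 (platelets, S against C), -0.49 to -0.0818 (S against O), -0.27 to 0.26 (O against C), -0.36 to -0.16 (PBMC, S against C), -0.0445 to 0.25 (S against O) and -0.51 to -0.23 (O against C). Without 1 library, 5 of the 12 ratios passed an exact P of 0.05 before adjustment: Bcl2l1 to Bak1 in PBMC of S against C without C replicate 1, and of S against O and O against C without O replicate 5, and Bcl2 to Bax in PBMC of S against C without S replicate 4 and of O against C without O replicate 3. An exact test of 5 pairs cannot reach 0.05, so the paired tests settle nothing about the ratios. All 5 same-numbered pairs deviated together (r over 0.1) in PBMC of S and C group alone. In 4 of 5 pairs they did so in PBMC of O and C, PBMC of S and O, platelets of O and C and between the tissues in the O group (r up to 0.609). Neither settles whether the numbers pair the libraries. Counts of Bad, a low gene, were 56 to 282 per library.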
